A study of Mus musculus with 36 samples.

Results

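Genes of the cell division cycle were followed in the kidneys of Balb/c mice that had received 177Lu-octreotate, a somatostatin analogue carrying a beta-emitting isotope of lutetium that is filtered and taken up again by the proximal tubule. The set is a list of 36 gene symbols, of which 16 belong to DNA replication and S phase, 16 to G2 and mitosis and 4 to the start of the cycle in G1. Members were all probes annotated to these symbols with a detection p-value under 0.05 on 3 or more arrays. Of the 36 genes, 32 had a probe (65 probes), and 27 genes with 42 probes met the rule, of 10571 genes and 15420 probes that met it in the whole data set. Total RNA of fresh-frozen kidney cortex and of kidney medulla was hybridised to Illumina bead arrays 24 h after injection of 0, 1.3, 3.6, 14, 45 or 140 MBq. Each tissue and activity had 3 arrays, which gave 12 groups and 36 arrays. All groups share the strain. The labels give no age or sex, do not say what the 0 MBq mice were injected with, and leave unsaid whether each array is an animal of its own. The p-values therefore reflect the scatter of these arrays, which may be technical.

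As background, a cell that commits to division raises D-type cyclins, whose kinases release E2F transcription factors from the retinoblastoma protein, and E2F then switches on the genes that license, build and copy DNA. Mitotic genes follow in G2 under a separate complex that binds elements named CCAAT and CHR. After DNA damage, p53 induces the inhibitor p21, and the DREAM complex then binds these promoters and represses S phase and mitotic genes together. The adult kidney divides slowly, and its tubule cells are mostly at rest, so RNA of cycling cells is a small part of such tissue.

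Values are log2 of the background-corrected and normalised signal, and changes are log2 differences ± SE against the 3 arrays at 0 MBq of the same tissue. A change is called at limma's adjusted p under 0.05 over all probes tested in a comparison. The number of arrays limits the precision. The arrays had median raw intensities between 112.2 and 225.2 and 12152 to 13319 detected probes. Control replicate 1 had the lowest medians of its tissues, 112.2 in cortex and 122.9 in medulla, and its mean log2 proximal tubule marker level stood at -0.819 (cortex) and -1.165 (medulla) relative to the mean of all arrays. Replicate 3 at 14 MBq carried adrenal markers 6.28 (cortex) and 5.65 (medulla) above that mean. At 0 MBq cortex minus medulla was -1.88 ± 0.39 for a probe of Kcnj1, a channel of the loop of Henle and collecting duct (ILMN_1257879, adjusted p = 0.0158), 0.14 ± 0.34 for its other probe, and -1.16 ± 0.27 for the collecting duct gene Fxyd4 (adjusted p = 0.0502). Other collecting duct markers lay on both sides of 0, with Aqp2 at -1.02 ± 0.31, Aqp3 at -0.25 ± 0.29 and Scnn1g at 0.59 ± 0.19, none called. Proximal tubule markers such as Slc34a1 were bright in both (14.8 in cortex, 14.6 in medulla).

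Few proliferation genes changed past the threshold, and the calls were all lower. Nusap1, which encodes a microtubule-binding protein of the mitotic spindle, fell in medulla at 3.6, 14 and 45 MBq. Mcm6, a subunit of the replicative helicase, fell in medulla at 45 MBq. Uhrf1, which encodes the protein that brings maintenance methylation to newly copied DNA, fell in cortex at 45 MBq. No member was called at 1.3 or 140 MBq in either tissue, and none was called higher at any activity. Each of these 5 calls ended when control replicate 1 was left out, which left 0 member probes called in all 10 comparisons with 0 MBq. The changes then were -1.52 for Uhrf1, -1.34 for Mcm6 and -1.20, -1.03 and -1.23 for Nusap1, and calls over all probes were fewer too, 41 against 113 with all arrays in cortex at 45 MBq and 94 against 342 in medulla at 45 MBq. With all arrays 10 of 36 probes of cell cycle brakes and p53 targets were called higher in cortex at 140 MBq, where 0.847% of all probes were called. Among the 10 were all tested probes of Cdkn1a, Ccng1 and Gtse1, so fewer genes than probes were called.

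**Figure D1:**
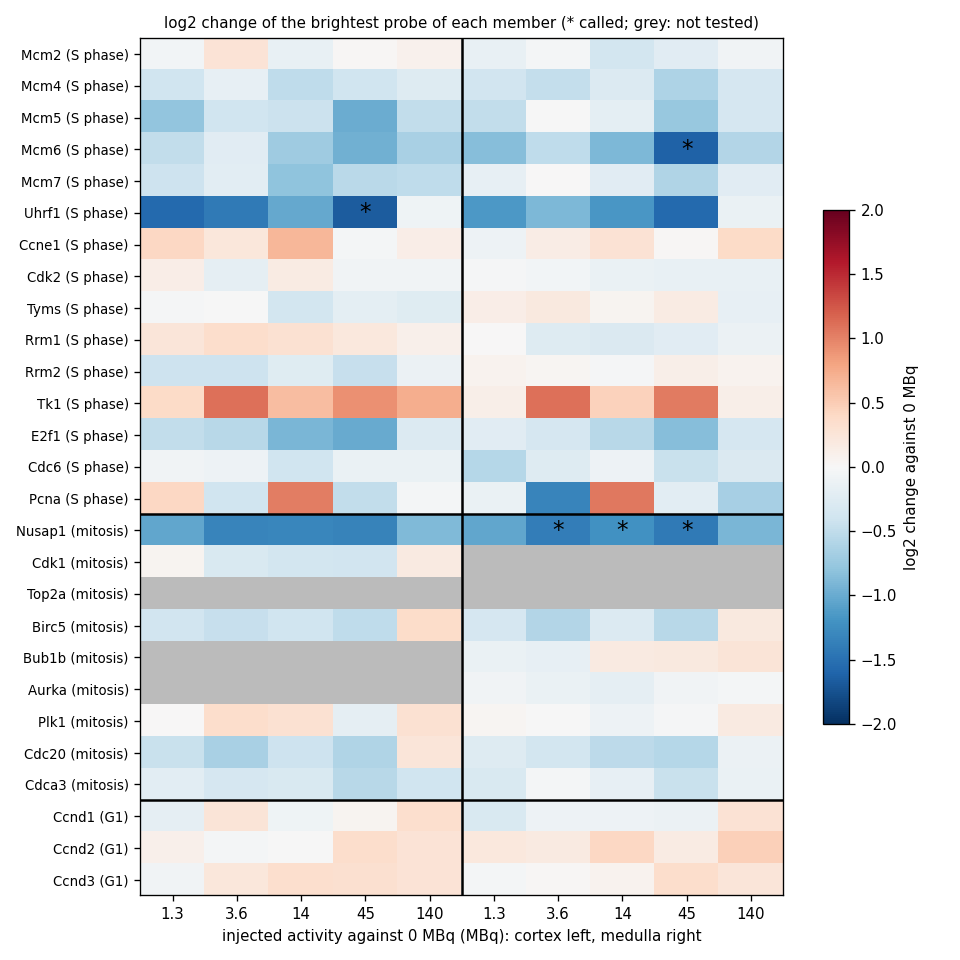
Each row is the probe with the highest mean signal of a member gene, each column an injected activity (MBq) set against 0 MBq in cortex (left) and medulla (right), and colour is the log2 change. Stars mark the 5 called changes (Uhrf1, Mcm6 and 3 of Nusap1), all of them lower, and grey cells were not tested.

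Promoter windows were read because the list holds genes known to share control elements. The windows run from 250 bases before to 50 after a gene start in RefSeq (GRCm38.p6), and 31 members had 34 windows. Aurkb, Ccna2, Ccnd1, Ccnd2 and Mcm4 have none here. The 3 genes with a call are shown, with Mcm5 as another helicase gene and Cdca3 as a mitotic gene holding a CHR element. Capitals mark matches on either strand to CCAAT, to the CHR letters TTTGAA, and to the E2F letters TTTCCCGC, TTTCGCGC, TTTGCCGC and TTTGGCGC. Matches can overlap, as E2F matches do in Mcm6 and in Mcm5 and CCAAT matches in the first Uhrf1 window.
Nusap1, chr2:119618048-119618347, plus strand: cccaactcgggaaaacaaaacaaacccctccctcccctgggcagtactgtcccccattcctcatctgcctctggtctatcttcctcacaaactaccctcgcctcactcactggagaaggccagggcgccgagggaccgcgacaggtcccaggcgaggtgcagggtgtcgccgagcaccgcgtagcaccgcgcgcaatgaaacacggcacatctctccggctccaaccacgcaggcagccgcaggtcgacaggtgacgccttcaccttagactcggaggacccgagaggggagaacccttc
Uhrf1, first window, chr17:56303087-56303386, plus strand: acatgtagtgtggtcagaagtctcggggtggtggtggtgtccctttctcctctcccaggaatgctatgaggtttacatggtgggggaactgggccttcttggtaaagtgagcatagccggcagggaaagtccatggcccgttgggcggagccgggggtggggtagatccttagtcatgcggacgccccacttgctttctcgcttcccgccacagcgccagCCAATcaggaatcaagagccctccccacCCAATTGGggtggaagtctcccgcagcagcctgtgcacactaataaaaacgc
Uhrf1, second window, chr17:56304063-56304362, plus strand: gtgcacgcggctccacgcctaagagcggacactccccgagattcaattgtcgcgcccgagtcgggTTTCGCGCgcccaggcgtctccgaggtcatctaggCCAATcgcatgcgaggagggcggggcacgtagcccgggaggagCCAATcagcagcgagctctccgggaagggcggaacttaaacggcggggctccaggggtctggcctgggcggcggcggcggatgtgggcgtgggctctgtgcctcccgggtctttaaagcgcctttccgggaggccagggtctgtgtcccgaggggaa
Mcm6, chr1:128359656-128359955, minus strand: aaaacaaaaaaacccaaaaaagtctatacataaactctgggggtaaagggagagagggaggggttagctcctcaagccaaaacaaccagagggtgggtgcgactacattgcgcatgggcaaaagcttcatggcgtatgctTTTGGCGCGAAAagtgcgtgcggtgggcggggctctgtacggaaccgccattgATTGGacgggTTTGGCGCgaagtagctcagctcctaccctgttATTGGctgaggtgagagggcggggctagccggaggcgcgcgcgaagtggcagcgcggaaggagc
Mcm5, chr8:75109259-75109558, plus strand: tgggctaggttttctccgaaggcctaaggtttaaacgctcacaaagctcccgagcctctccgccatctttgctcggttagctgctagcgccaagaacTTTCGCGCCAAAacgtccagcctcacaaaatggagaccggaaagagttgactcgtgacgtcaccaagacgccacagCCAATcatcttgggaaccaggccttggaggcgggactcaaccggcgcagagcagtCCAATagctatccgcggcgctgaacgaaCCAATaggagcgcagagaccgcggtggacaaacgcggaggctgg
Cdca3, chr6:124829926-124830225, plus strand: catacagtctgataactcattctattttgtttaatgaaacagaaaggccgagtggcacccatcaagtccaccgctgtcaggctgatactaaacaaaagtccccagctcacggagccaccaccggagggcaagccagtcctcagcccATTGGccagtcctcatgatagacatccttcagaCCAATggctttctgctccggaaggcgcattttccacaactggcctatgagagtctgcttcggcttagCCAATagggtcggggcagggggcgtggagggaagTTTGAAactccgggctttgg

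The Nusap1 window held none of the letters searched. Mcm6 had 3 E2F and 2 CCAAT matches, Mcm5 had 2 E2F and 3 CCAAT matches, and Cdca3 had 1 CHR and 3 CCAAT matches. For Uhrf1, the second window held 1 E2F and 2 CCAAT matches and the first held 3 CCAAT matches. E2F letters stood in 7 of the 17 S phase windows (41.2%), in 1 of the 14 mitosis windows (7.14%) and in 2.26% of all 32851 windows. CHR letters stood in 1 S phase window (5.88%), in 10 mitosis windows (71.4%) and in 17.9% of all windows. CCAAT stood in 12 S phase windows (70.6%), 12 mitosis windows (85.7%), 1 of 3 G1 windows (33.3%) and 37.4% of all windows. The 3 G1 windows held 0 E2F and 0 CHR matches. The 1 overlap between different motifs was in Mcm7. A match describes the letters, and no factor binding was measured here.

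Detection divided the list by role. Of the S phase genes 15 of 16 met the rule (23 of 35 probes), of the mitosis genes 9 of 16 (12 of 23 probes), and of the G1 genes 3 of 4 (7 of 7 probes). On all 36 arrays 11 S phase probes of 9 genes, 6 G1 probes of 3 genes and 1 mitosis probe, of Cdca3, were detected, while 18 member probes were detected on none. No probe is annotated here to the mitotic cyclin Ccnb1, the proliferation marker Mki67, the mitotic kinase Aurkb or the G1 kinase Cdk4. The mitotic genes Bub1, Ccna2, Ccnb2 and Kif11 had a probe that was detected on 0 arrays, and the helicase gene Mcm3 was detected on 1. Just inside the rule were Top2a and a Cdc20 probe (ILMN_2612206) with 3 arrays, and just outside it a Tk1 probe (ILMN_2611857) with 2. Probes of Birc5, Cdk1 and Tyms, like Mcm3, had 1 array.

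**Figure D2:**
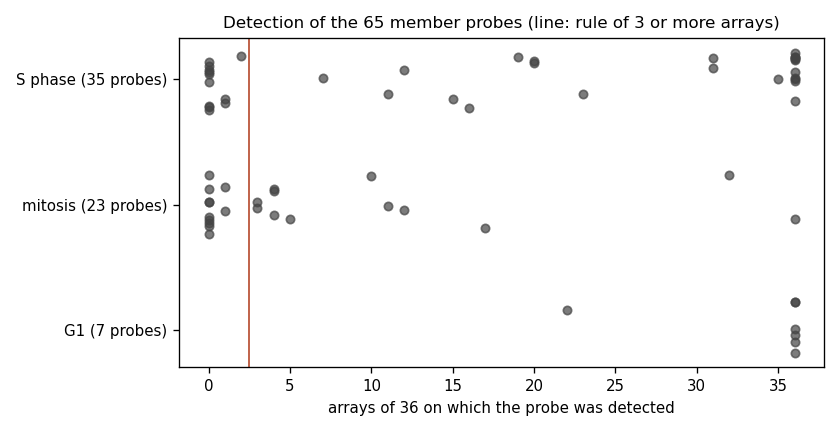
Each point is 1 of the 65 probes, placed by the number of arrays on which it was detected (horizontal axis, of 36) and by role (vertical axis, scattered within a role to separate points). The line marks the rule of 3 or more arrays, and 12 S phase and 11 mitosis probes lie left of it.

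Detection was also counted on each array. For the mitosis members in cortex, of 23 probes, between 3 and 9 (median 7) were detected at 0 MBq, 4 to 5 at 1.3 MBq, 1 to 4 at 3.6 MBq, 3 to 5 at 14 MBq, 2 on every array at 45 MBq and 3 to 7 (median 4) at 140 MBq. In medulla the counts were 4 to 8 (median 5), 3 to 4, 2 on every array, 1 to 6, 2 to 5 and 3 to 11 (median 5) over the same activities. The ranges at 0 and 140 MBq overlap in both tissues. In cortex the 45 MBq arrays lie below every control, and in medulla the 3.6 MBq arrays do. Over all probes, these cortex arrays detected 12152 to 12805, against 12520 to 13147 at 0 MBq. These medulla arrays detected 12540 to 12957, against 12889 to 13293. The part of detection over all probes in the mitosis counts was not tested. For S phase probes, of 35, the counts were 16 to 24 at 0 MBq, 15 to 18 at 45 MBq and 14 to 21 at 140 MBq in cortex, and 17 to 20, 15 to 17 and 16 to 21 in medulla. In a bulk sample fewer cells of a type and less RNA per cell cannot be told apart.

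The filter touches the tests. In cortex 37 member probes of 24 genes and in medulla 39 of 25 genes were tested, since the rule was applied again within a tissue. Top2a was tested in neither, Cdk1 in cortex alone, and Bub1b, Aurka and a Cdc20 probe (ILMN_2698767) in medulla alone. In cortex the probes of Nusap1 and Cdk1 and the dimmer Mcm6 probe passed only with the control arrays, and in medulla the dimmer Mcm6 probe, Aurka and ILMN_2698767 did, so their low values after treatment were favoured by the choice. The called medulla probes of Nusap1 and Mcm6 also passed on the treated arrays alone.

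Uhrf1 was the S phase member called in cortex. There its log2 signals were 8.73, 9.06 and 7.49 at 0 MBq, 6.82, 6.87 and 6.95 at 1.3 MBq, 7.42, 6.63 and 7.01 at 3.6 MBq, 8.01, 7.56 and 6.66 at 14 MBq, 6.66, 6.89 and 6.72 at 45 MBq and 8.59, 8.17 and 8.27 at 140 MBq. The 3 arrays at 1.3, 3.6 and 45 MBq all lie below every control, while at 140 MBq they lie among the controls. In medulla the signals were 8.04, 9.12 and 6.79 at 0 MBq, 6.55, 7.12 and 6.82 at 1.3 MBq, 7.08, 6.93 and 7.26 at 3.6 MBq, 7.56, 6.49 and 6.43 at 14 MBq, 6.02, 6.94 and 6.33 at 45 MBq and 8.53, 7.50 and 7.52 at 140 MBq. Every treated group overlaps the controls there, the 45 MBq group with 1 array of 3, and the controls themselves span 6.79 to 9.12. In cortex the changes were -1.55 ± 0.36 at 1.3 MBq (limma adjusted p = 0.0832), -1.41 ± 0.36 at 3.6 MBq (0.116), -1.02 ± 0.36 at 14 MBq (0.191), -1.67 ± 0.36 at 45 MBq (0.0454) and -0.08 ± 0.36 at 140 MBq (0.960). So Uhrf1 fell in cortex at 45 MBq, to 6.76 ± 0.12, against 8.43 ± 0.83 at 0 MBq (SD, n = 3 each). In medulla they were -1.15 ± 0.46, -0.89 ± 0.46, -1.16 ± 0.46, -1.56 ± 0.46 and -0.13 ± 0.46 over the same activities, with the smallest adjusted p at 45 MBq (0.0814).

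The Uhrf1 call rested on single arrays. In cortex at 45 MBq the adjusted p was 0.161, 0.132 and 0.124 when 45 MBq replicate 1, 2 or 3 was left out, 0.189 when control replicate 1 was and 0.174 when control replicate 2 was, and the change stayed between -1.35 and -1.73. Without control replicate 3, the lowest control of both tissues, Uhrf1 was called in cortex also at 1.3 (-2.02, adjusted p = 0.0107), 3.6 (-1.88, 0.0107) and 14 MBq (-1.48, 0.0208), and in medulla at 1.3 (-1.75, 0.0279), 3.6 (-1.49, 0.0425), 14 (-1.75, 0.0181) and 45 MBq (-2.15, 0.00517). In cortex at 3.6 MBq it was called without 3.6 MBq replicate 1 as well (-1.61, adjusted p = 0.0367). On the deposited normalised table, which keeps the background in, the cortex change at 45 MBq was -0.996 (adjusted p = 0.0446). A further Uhrf1 probe was detected on 0 arrays.

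Levels of other cell types differed between the groups as well. Of 10 listed myeloid genes 6 were detected on 3 or more arrays, and Itgam had a probe that was not. In cortex their log2 mean was 7.04 to 9.09 at 0 MBq, 6.50 to 7.52 at 1.3 MBq, 5.87 to 6.37 at 3.6 MBq, 5.13 to 6.52 at 14 MBq, 5.52 to 7.09 at 45 MBq and 6.73 to 6.96 at 140 MBq. In medulla it was 7.70 to 9.41, 7.29 to 8.07, 6.83 to 7.26, 6.50 to 6.98, 6.50 to 7.32 and 7.52 to 7.85. Highest at 0 MBq and lowest at 14 MBq in both tissues, the group means lay at 140 MBq above those at 3.6, 14 and 45 MBq. Lymphocyte markers, 5 of 9 detected and with Cd8a, Cd4 and Cd2 not detected, ran from 5.05 to 5.90 over all groups. Smooth muscle and fibroblast markers, 5 of 5 detected, averaged 7.98, 7.42, 7.24, 7.38, 7.38 and 8.21 in cortex from 0 to 140 MBq, and 8.01, 7.45, 7.48, 7.73, 7.30 and 7.77 in medulla. The 1 podocyte marker with a probe averaged 10.2, 10.1, 9.69, 9.17, 9.35 and 10.2 in cortex. Endothelial markers, 5 of 6 detected, averaged 9.38, 9.27, 8.73, 8.21, 8.95 and 8.77 there, and erythroid markers, 3 of 5 detected, 10.9, 11.1, 10.5, 10.1, 10.7 and 10.3. At 140 MBq in cortex the smooth muscle and podocyte means stood near or above 0 MBq, and the proximal tubule mean above it (11.965 against 11.734). The smooth muscle mean there rested on replicate 3 (9.064, against 7.931 and 7.646), and the podocyte mean on 1 gene. In medulla at 140 MBq the smooth muscle and podocyte means lay below 0 MBq (7.768 against 8.013, and 9.67 against 9.961). The proximal tubule mean lay above it there (11.697 against 11.448). Uhrf1 at 140 MBq lay among its controls in both tissues. In cortex the myeloid, lymphocyte, endothelial and erythroid means stood lower at 140 than at 0 MBq. The lymphocyte means there, 5.35 and 5.62, lie near the detection limits of the arrays (5.59 to 5.89). The erythroid controls span 9.73 to 11.9, around all 140 MBq arrays (10.1 to 10.5). The part of any of these cells in the changes of Uhrf1, Nusap1 and Mcm6 was not tested.

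**Figure D3:**
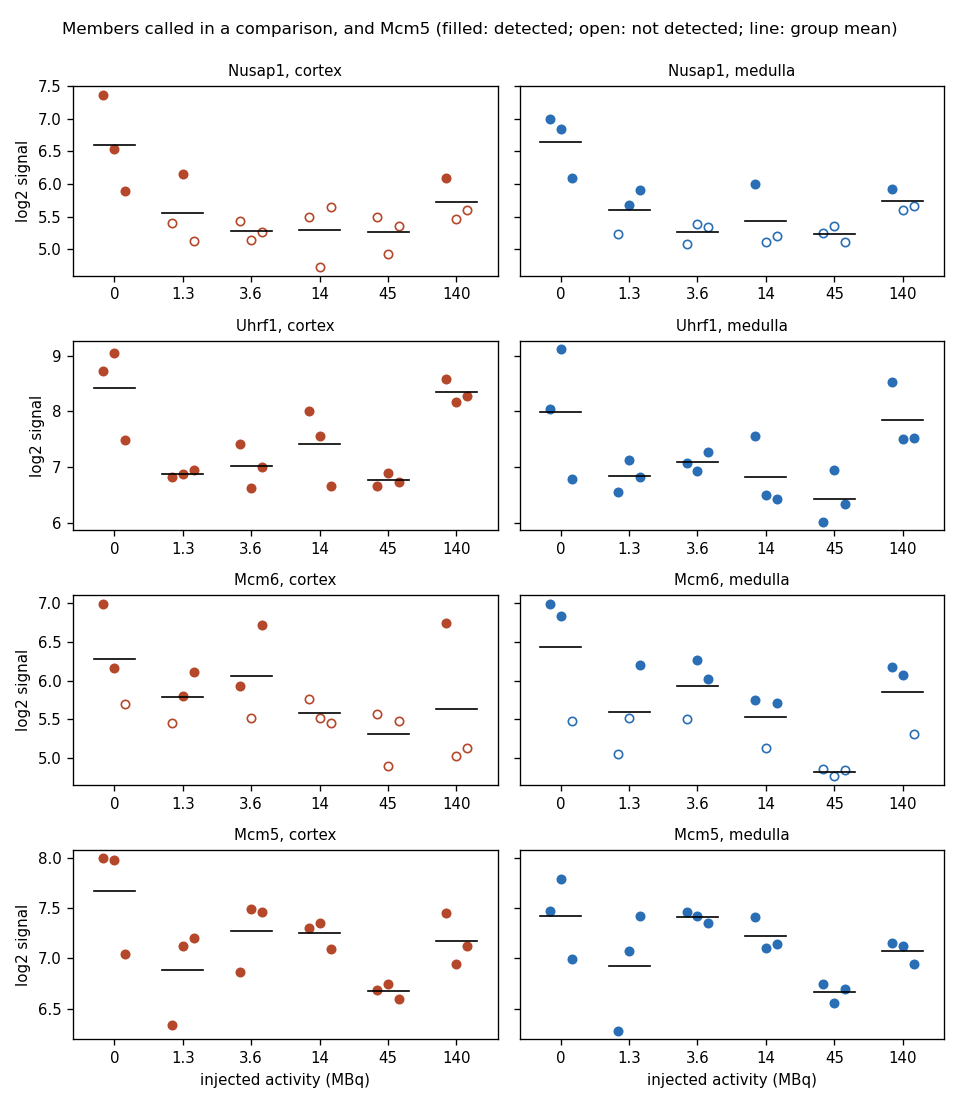
Log2 signal (vertical axis) of Nusap1, Uhrf1, Mcm6 and Mcm5 on each array by injected activity in MBq (horizontal axis), in cortex (left) and medulla (right), with group means as lines and arrays without detection as open points. Nusap1 is detected on all 3 arrays at 0 MBq and on none at 3.6 and 45 MBq in medulla, and Uhrf1 returns at 140 MBq to the range of its controls.

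The helicase subunits Mcm2 to Mcm7 load onto origins in G1 and unwind DNA in S phase. Mcm6 (ILMN_2803399) had log2 signals in medulla of 6.98, 6.84 and 5.48 at 0 MBq, 5.06, 5.51 and 6.20 at 1.3 MBq, 5.50, 6.27 and 6.02 at 3.6 MBq, 5.75, 5.13 and 5.71 at 14 MBq, 4.86, 4.77 and 4.85 at 45 MBq and 6.17, 6.08 and 5.31 at 140 MBq. Control replicates 1 and 2 lie above all treated arrays, replicate 3 does not, and the 45 MBq arrays are the lowest and were not detected. In cortex the signals were 6.99, 6.16 and 5.69 at 0 MBq, 5.46, 5.80 and 6.12 at 1.3 MBq, 5.93, 5.52 and 6.72 at 3.6 MBq, 5.76, 5.52 and 5.45 at 14 MBq, 5.56, 4.90 and 5.48 at 45 MBq and 6.74, 5.03 and 5.13 at 140 MBq. Here every treated group overlaps the controls except that at 45 MBq. Mcm6 fell in medulla at 45 MBq by 1.61 ± 0.37 on the log2 scale (adjusted p = 0.0333). As a bound from the detection limit it was at least 1.66-fold lower than the mean of the 3 controls, of which 2 were detected. The cortex change at 45 MBq was -0.97 ± 0.43 (adjusted p = 0.369), and the changes at the other activities were -0.23 to -0.71 in cortex and -0.50 to -0.90 in medulla, none called.

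Support for the Mcm6 call was narrow. It ended without 45 MBq replicate 1 (adjusted p = 0.0965), 2 (0.0603) or 3 (0.0848), without control replicate 1 (0.142) or 2 (0.107), and with no detection filter (0.0513), while the change stayed between -1.34 and -1.63. On the deposited table the change was -0.65 (adjusted p = 0.0198). The dimmer Mcm6 probe ILMN_1233857 read 5.85, 6.15 and 5.60 at 0 MBq, 4.94, 5.33 and 5.21 at 1.3 MBq, 5.97, 5.23 and 5.11 at 3.6 MBq, 5.28, 5.34 and 5.19 at 14 MBq, 5.32, 5.32 and 4.94 at 45 MBq and 5.66, 5.26 and 5.36 at 140 MBq in medulla. Its signals at 1.3, 14 and 45 MBq lie below every control. Its changes were -0.71 ± 0.21 at 1.3 MBq, -0.43 ± 0.21 at 3.6 MBq, -0.60 ± 0.21 at 14 MBq, -0.67 ± 0.21 at 45 MBq (adjusted p = 0.0965) and -0.44 ± 0.21 at 140 MBq, none called, and since this probe passed the filter only with the control arrays its low values are no support for the brighter one.

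Mcm5 was detected on all arrays. In cortex its signals were 7.99, 7.98 and 7.05 at 0 MBq, 6.33, 7.12 and 7.20 at 1.3 MBq, 6.86, 7.49 and 7.47 at 3.6 MBq, 7.30, 7.35 and 7.10 at 14 MBq, 6.69, 6.75 and 6.59 at 45 MBq and 7.46, 6.95 and 7.12 at 140 MBq. In medulla they were 7.48, 7.79 and 6.99 at 0 MBq, 6.28, 7.08 and 7.43 at 1.3 MBq, 7.46, 7.43 and 7.36 at 3.6 MBq, 7.41, 7.10 and 7.14 at 14 MBq, 6.75, 6.55 and 6.70 at 45 MBq and 7.16, 7.13 and 6.95 at 140 MBq. At 45 MBq all 3 arrays lie below all controls in both tissues, the highest at 6.75 in each, against a lowest control of 7.05 in cortex and 6.99 in medulla. The changes there were -0.998 ± 0.28 in cortex (adjusted p = 0.121) and -0.75 ± 0.24 in medulla (0.0956), and neither was called. In cortex it became a call without control replicate 3 (-1.31, adjusted p = 0.0159) and in the fit of all 36 arrays (adjusted p = 0.0393). At 1.3 MBq the changes were -0.79 ± 0.28 and -0.49 ± 0.24, and at 140 MBq -0.50 ± 0.28 and -0.34 ± 0.24, in cortex and in medulla.

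Mcm2 gave a different picture. Its cortex signals were 7.28, 7.37 and 6.67 at 0 MBq, 7.10, 6.78 and 7.28 at 1.3 MBq, 6.85, 7.60 and 7.68 at 3.6 MBq, 6.77, 7.41 and 6.69 at 14 MBq, 7.29, 7.28 and 6.81 at 45 MBq and 7.38, 6.94 and 7.27 at 140 MBq. Its medulla signals were 7.21, 7.46 and 6.39 at 0 MBq, 6.80, 6.79 and 7.02 at 1.3 MBq, 6.75, 7.30 and 6.87 at 3.6 MBq, 6.68, 6.63 and 6.66 at 14 MBq, 6.76, 6.58 and 7.05 at 45 MBq and 7.15, 6.97 and 6.73 at 140 MBq. All treated groups overlap the controls, and the changes ran from -0.36 to 0.27 with none called. Mcm4 read 10.06, 10.26 and 9.61 at 0 MBq, 9.32, 9.84 and 9.64 at 1.3 MBq, 9.54, 9.30 and 9.66 at 3.6 MBq, 9.80, 9.61 and 9.68 at 14 MBq, 9.39, 9.48 and 9.20 at 45 MBq and 9.57, 10.01 and 9.34 at 140 MBq in medulla, where all arrays at 45 MBq lie below the controls, by -0.62 ± 0.20 on average (adjusted p = 0.0997). Its cortex signals were 9.40, 10.13 and 9.45 at 0 MBq, 9.26, 9.23 and 9.28 at 1.3 MBq, 9.49, 9.44 and 9.53 at 3.6 MBq, 9.05, 8.91 and 9.50 at 14 MBq, 9.49, 8.79 and 9.49 at 45 MBq and 9.57, 9.60 and 9.02 at 140 MBq, with changes of -0.17 to -0.51. Mcm7, detected on 12 arrays, changed by at most -0.80 ± 0.33 (cortex, 14 MBq, adjusted p = 0.265).

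E2f1 encodes the transcription factor that activates many of the genes above. In cortex its signals were 7.94, 6.999 and 6.45 at 0 MBq, 6.73, 6.32 and 6.86 at 1.3 MBq, 6.07, 6.66 and 6.98 at 3.6 MBq, 6.06, 6.36 and 6.24 at 14 MBq, 6.16, 6.37 and 5.83 at 45 MBq and 7.08, 6.51 and 6.98 at 140 MBq. In medulla they were 7.10, 7.18 and 6.01 at 0 MBq, 6.20, 6.54 and 6.90 at 1.3 MBq, 6.72, 5.86 and 6.70 at 3.6 MBq, 6.05, 6.06 and 6.49 at 14 MBq, 5.77, 5.96 and 6.02 at 45 MBq and 6.59, 6.05 and 6.64 at 140 MBq. At 14 and 45 MBq all cortex arrays lie below the controls, and every medulla group overlaps its controls, though at 45 MBq only by an array at 6.02 over a control at 6.01. The changes were -0.91 ± 0.32 (14 MBq, adjusted p = 0.187) and -1.01 ± 0.32 (45 MBq, 0.171) in cortex and -0.84 ± 0.30 in medulla at 45 MBq (0.140). Without cortex control replicate 3 the 14 MBq change was -1.25 and called (adjusted p = 0.0457). At 140 MBq the changes were -0.27 ± 0.32 in cortex and -0.34 ± 0.30 in medulla.

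Tk1, the thymidine kinase that salvages thymidine for DNA synthesis, lay on the other side of 0. Its cortex signals were 6.99, 8.29 and 7.89 at 0 MBq, 8.14, 7.76 and 8.41 at 1.3 MBq, 8.98, 8.93 and 8.56 at 3.6 MBq, 8.42, 8.46 and 8.15 at 14 MBq, 8.41, 8.96 and 8.54 at 45 MBq and 8.73, 8.18 and 8.44 at 140 MBq. Its medulla signals were 5.88, 7.84 and 6.95 at 0 MBq, 6.89, 6.99 and 7.14 at 1.3 MBq, 7.72, 8.14 and 8.13 at 3.6 MBq, 7.25, 7.50 and 7.32 at 14 MBq, 7.99, 7.62 and 8.21 at 45 MBq and 7.50, 7.06 and 6.46 at 140 MBq. Control replicate 1 was the lowest of all arrays in each tissue, and in cortex all arrays at 3.6 and 45 MBq lie above every control, while every medulla group overlaps its controls. The changes in cortex were 0.38 ± 0.28, 1.10 ± 0.28, 0.62 ± 0.28, 0.92 ± 0.28 and 0.73 ± 0.28 from 1.3 to 140 MBq, with the smallest adjusted p at 3.6 MBq (0.116). In medulla they were 0.12 ± 0.36, 1.11 ± 0.36 (adjusted p = 0.114), 0.47 ± 0.36, 1.05 ± 0.36 (0.123) and 0.11 ± 0.36. None was called with all arrays, and without control replicate 2 the medulla changes at 3.6 MBq (1.58, adjusted p = 0.0276) and 45 MBq (1.52, 0.0263) were. A dimmer Tk1 probe, ILMN_2893926, ran from -0.12 to 0.37.

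Pcna, the sliding clamp of DNA polymerase and also a p53 target, varied widely between arrays of a group. In cortex its signals were 6.56, 6.59 and 7.01 at 0 MBq, 7.06, 7.16 and 7.18 at 1.3 MBq, 8.13, 5.45 and 5.38 at 3.6 MBq, 6.73, 8.17 and 8.36 at 14 MBq, 6.88, 6.35 and 5.47 at 45 MBq and 6.96, 6.62 and 6.46 at 140 MBq. In medulla they were 6.38, 6.95 and 7.41 at 0 MBq, 6.79, 7.69 and 5.85 at 1.3 MBq, 5.01, 4.92 and 6.84 at 3.6 MBq, 8.13, 7.81 and 7.96 at 14 MBq, 6.94, 7.29 and 5.90 at 45 MBq and 6.41, 6.43 and 5.89 at 140 MBq. At 3.6 MBq only 1 array of 3 was detected in either tissue, and at 14 MBq all medulla arrays lie above all controls. The medulla changes were -1.32 ± 0.50 at 3.6 MBq (adjusted p = 0.168) and 1.05 ± 0.50 at 14 MBq (0.229), and the test for any difference among the 6 medulla groups gave an adjusted p of 0.0729. In cortex the change at 14 MBq was 1.03 ± 0.59 (adjusted p = 0.447). Without 3.6 MBq replicate 3 the medulla change at 3.6 MBq was -1.95 and called (adjusted p = 0.0345).

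**Figure D4:**
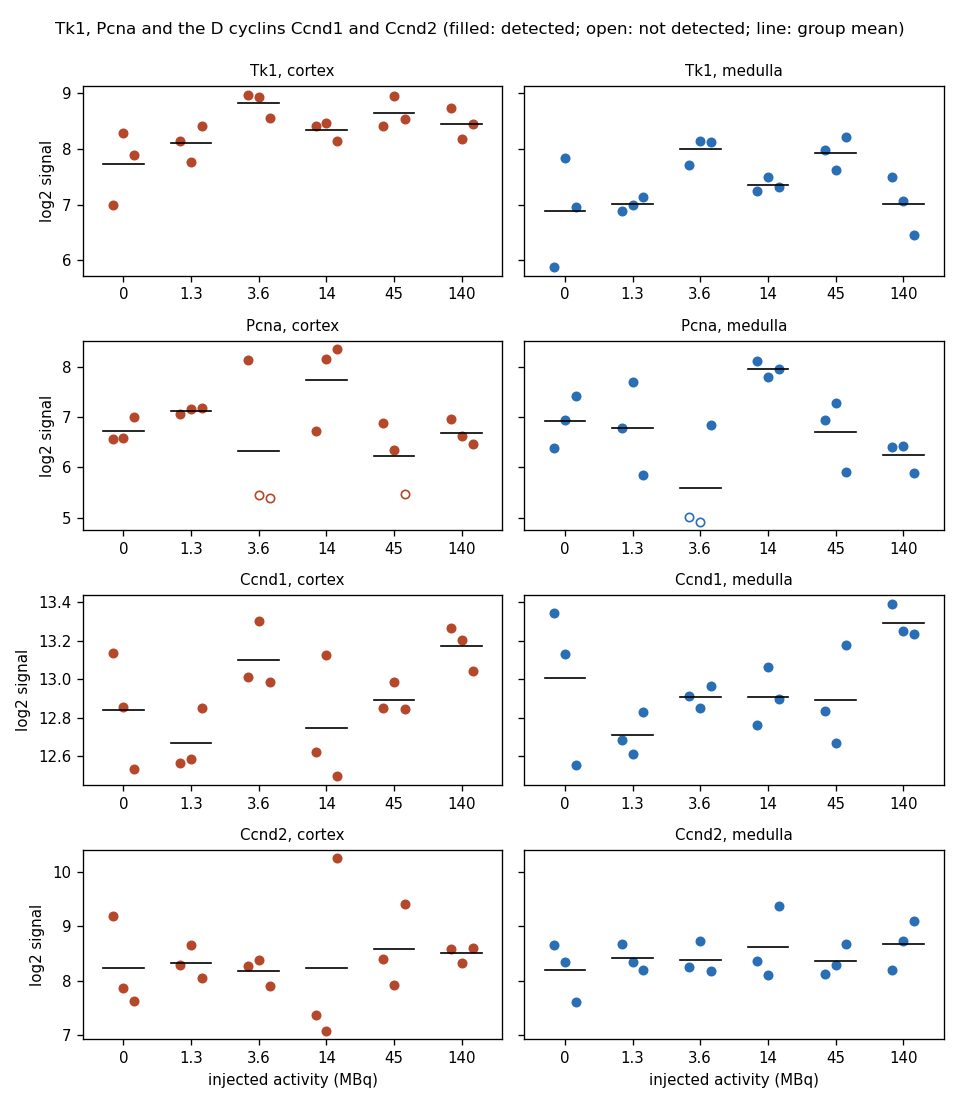
Log2 signal (vertical axis) of Tk1, Pcna, Ccnd1 and Ccnd2 on each array by injected activity in MBq (horizontal axis), in cortex (left) and medulla (right), with group means as lines and arrays without detection as open points. Tk1 has its lowest array at 0 MBq in both tissues, and Ccnd2 is highest on replicate 3 at 14 MBq, 10.25 in cortex and 9.38 in medulla.

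The remaining S phase members were not called in any comparison. Ccne1, the cyclin of S phase entry, read 4.90, 5.22 and 5.55 at 0 MBq, 5.85, 5.94 and 5.14 at 1.3 MBq, 5.21, 5.57 and 5.57 at 3.6 MBq, 5.69, 5.92 and 6.05 at 14 MBq, 5.63, 4.94 and 4.98 at 45 MBq and 5.89, 5.17 and 5.03 at 140 MBq in cortex. At 14 MBq its 3 arrays lie above the controls (0.66 ± 0.28, adjusted p = 0.274), and in medulla its changes ran from -0.11 to 0.39. Rrm1, the large subunit of ribonucleotide reductase, read 8.05, 8.17 and 7.92 at 0 MBq, 8.09, 8.40 and 8.40 at 1.3 MBq, 8.11, 8.64 and 8.46 at 3.6 MBq, 8.47, 8.25 and 8.36 at 14 MBq, 8.30, 8.02 and 8.46 at 45 MBq and 8.27, 7.60 and 8.60 at 140 MBq in cortex. At 14 MBq its 3 arrays lie above the controls. The changes were 0.11 to 0.35 in cortex and -0.29 to 0.00 in medulla. Rrm2, the small subunit, changed by -0.46 to 0.11, Cdc6, a loader of the helicase, by -0.58 to -0.08, and the brightest probe of the kinase Cdk2 by -0.18 to 0.17.

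Tyms, the enzyme that makes thymidylate, had 4 probes that met the rule and did not move alike. ILMN_1247173 read 6.83, 6.99 and 7.27 at 0 MBq, 7.47, 7.04 and 7.18 at 1.3 MBq, 7.33, 7.36 and 7.28 at 3.6 MBq, 7.43, 7.39 and 7.03 at 14 MBq, 6.90, 6.89 and 6.28 at 45 MBq and 6.91, 6.86 and 6.32 at 140 MBq in cortex. The group means are lowest at 45 and 140 MBq, where both groups overlap the controls, with changes of -0.34 ± 0.21 and -0.33 ± 0.21. In medulla it read 6.48, 6.87 and 6.72 at 0 MBq, 7.14, 6.95 and 6.82 at 1.3 MBq, 6.22, 6.81 and 7.35 at 3.6 MBq, 6.53, 6.72 and 6.61 at 14 MBq, 7.07, 7.29 and 7.10 at 45 MBq and 6.49, 6.33 and 6.57 at 140 MBq. There the 45 MBq arrays lie above all controls (0.46 ± 0.21, adjusted p = 0.253) and the 140 MBq change was -0.23 ± 0.21. ILMN_2441899 read 5.96, 6.11 and 6.46 at 0 MBq, 5.88, 6.11 and 6.01 at 1.3 MBq, 5.85, 6.07 and 6.25 at 3.6 MBq, 6.93, 6.22 and 5.74 at 14 MBq, 6.04, 6.28 and 6.46 at 45 MBq and 5.75, 5.72 and 5.69 at 140 MBq in cortex. Its arrays at 140 MBq lie below all controls there (-0.46 ± 0.24), and in medulla those at 3.6, 45 and 140 MBq lie above them, by 0.36 ± 0.17 at 3.6 MBq (adjusted p = 0.264).

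The brightest Tyms probe, ILMN_2484707, read 8.56, 8.84 and 8.98 at 0 MBq, 8.88, 8.89 and 9.03 at 1.3 MBq, 8.93, 8.96 and 9.08 at 3.6 MBq, 8.73, 9.001 and 8.79 at 14 MBq, 9.06, 8.80 and 9.03 at 45 MBq and 8.83, 8.36 and 8.69 at 140 MBq in medulla. Every group overlaps its controls, and with ILMN_2441895 its changes ran from -0.37 to 0.32. No Tyms probe was called. The Cdk2 probe ILMN_2717613 read 7.97, 8.66 and 8.20 at 0 MBq, 8.73, 8.70 and 7.92 at 1.3 MBq, 8.07, 8.67 and 8.39 at 3.6 MBq, 8.63, 8.43 and 8.57 at 14 MBq, 8.54, 8.76 and 8.22 at 45 MBq and 8.39, 8.61 and 8.69 at 140 MBq in cortex. Every group overlaps the controls, and its changes were 0.10 to 0.29 in cortex and -0.29 to 0.05 in medulla.

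Among mitosis members Nusap1 stood out by its calls. In medulla its log2 signals were 6.999, 6.85 and 6.09 at 0 MBq, 5.23, 5.68 and 5.91 at 1.3 MBq, 5.08, 5.39 and 5.34 at 3.6 MBq, 5.99, 5.12 and 5.21 at 14 MBq, 5.25, 5.35 and 5.12 at 45 MBq and 5.93, 5.60 and 5.67 at 140 MBq. All 3 controls lie above all 15 treated arrays. In cortex the signals were 7.37, 6.53 and 5.90 at 0 MBq, 5.40, 6.15 and 5.12 at 1.3 MBq, 5.43, 5.15 and 5.26 at 3.6 MBq, 5.50, 4.73 and 5.65 at 14 MBq, 5.50, 4.92 and 5.36 at 45 MBq and 6.09, 5.47 and 5.61 at 140 MBq. There the arrays at 3.6, 14 and 45 MBq lie below all controls, and 1 array at 1.3 MBq and 1 at 140 MBq lie above the lowest control. It was detected on all 3 control arrays of each tissue, and of the treated arrays on 2 in cortex and 4 in medulla.

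Nusap1 fell in medulla by 1.38 ± 0.25 on the log2 scale at 3.6 MBq (adjusted p = 0.0121), by 1.21 ± 0.25 at 14 MBq (0.0176) and by 1.41 ± 0.25 at 45 MBq (0.00807). As bounds it was at least 1.90-fold lower at 3.6 MBq and at least 1.92-fold lower at 45 MBq, where it was not detected. The changes at 1.3 and 140 MBq were -1.04 ± 0.25 (adjusted p = 0.0664) and -0.92 ± 0.25 (0.0965). In cortex they were -1.04 ± 0.35, -1.32 ± 0.35, -1.31 ± 0.35, -1.34 ± 0.35 and -0.88 ± 0.35 from 1.3 to 140 MBq, with adjusted p-values of 0.0848 and more. These were not called with the cortex arrays alone, and the 3.6, 14 and 45 MBq changes were in the fit of all 36 arrays (adjusted p = 0.0274, 0.0170 and 0.0194). Within cortex this probe passed the filter only with the control arrays, so its low values there were favoured by the choice. The test for any difference among the medulla groups called Nusap1 (adjusted p = 0.0224).

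Single arrays mattered here too. In medulla the call at 3.6 MBq ended without 3.6 MBq replicate 1 (adjusted p = 0.0570), control replicate 1 (0.0590) or control replicate 2 (0.0527). That at 14 MBq ended without 14 MBq replicate 2 (0.0675) or 3 (0.0833), control replicate 1 (0.0779) or control replicate 2 (0.0529), and that at 45 MBq without control replicate 1 (0.0547). Over these the changes were -1.03 to -1.28. Without control replicate 3 Nusap1 was called also at 1.3 MBq (-1.32, adjusted p = 0.00929) and 140 MBq (-1.19, 0.0157) in medulla, and in cortex at 3.6 (-1.67, 0.0278), 14 (-1.66, 0.0202) and 45 MBq (-1.69, 0.0193). Those cortex calls are no support for the medulla calls, since the probe passed the filter in cortex only with the control arrays. On the deposited table the medulla changes were -0.49, -0.44 and -0.51 at 3.6, 14 and 45 MBq, with adjusted p-values of 0.0203, 0.0227 and 0.0161. The other 2 Nusap1 probes were detected on 0 arrays.

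The other mitosis members were not called in any comparison. Top2a, the topoisomerase that untangles chromosomes, read 5.77, 5.77 and 4.77 at 0 MBq in cortex, where it was detected on 2 arrays. In medulla it read 5.88, 5.56 and 4.87 at 0 MBq and was detected on 1. It was detected on no treated array. Cdc20, an activator of the anaphase-promoting complex, read 6.86, 6.34 and 6.06 at 0 MBq, 6.003, 5.90 and 6.03 at 1.3 MBq, 5.43, 6.01 and 5.90 at 3.6 MBq, 5.98, 6.39 and 5.67 at 14 MBq, 6.06, 5.90 and 5.49 at 45 MBq and 7.01, 6.44 and 6.54 at 140 MBq in cortex (ILMN_2867899). The arrays at 1.3 and 3.6 MBq lie below the lowest control, those at 45 MBq reach it at 6.06, and those at 140 MBq lie among the controls or above them. Its changes in cortex were -0.44 ± 0.25, -0.64 ± 0.25 (adjusted p = 0.291), -0.41 ± 0.25, -0.60 ± 0.25 and 0.24 ± 0.25 from 1.3 to 140 MBq.

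Birc5, which encodes the survivin subunit of the chromosomal passenger complex, read 6.49, 6.28 and 5.66 at 0 MBq, 5.75, 5.63 and 5.88 at 1.3 MBq, 5.32, 5.69 and 6.03 at 3.6 MBq, 6.33, 5.50 and 5.40 at 14 MBq, 5.17, 5.75 and 6.002 at 45 MBq and 6.76, 6.11 and 6.64 at 140 MBq in cortex. At 140 MBq 2 of 3 arrays lie above the highest control. Its changes were -0.39 to -0.50 up to 45 MBq and 0.36 ± 0.30 at 140 MBq, and in medulla -0.27 to -0.58 and 0.19 ± 0.26. Cdca3, which promotes entry into mitosis, changed by -0.21 to -0.56 in cortex and by -0.04 to -0.44 in medulla. The kinase Plk1 changed by -0.18 to 0.35 in cortex and by -0.10 to 0.18 in medulla. Cdk1, the kinase that drives mitosis, changed by -0.38 to 0.18 in cortex, and in medulla the checkpoint kinase Bub1b by -0.16 to 0.26 and the spindle kinase Aurka by -0.18 to -0.03.

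The D-type cyclins were detected throughout. Ccnd1 (ILMN_1221503) read 13.14, 12.85 and 12.53 at 0 MBq, 12.57, 12.59 and 12.85 at 1.3 MBq, 13.01, 13.30 and 12.99 at 3.6 MBq, 12.62, 13.12 and 12.50 at 14 MBq, 12.85, 12.99 and 12.84 at 45 MBq and 13.26, 13.20 and 13.04 at 140 MBq in cortex. In medulla it read 13.34, 13.13 and 12.55 at 0 MBq, 12.69, 12.61 and 12.83 at 1.3 MBq, 12.91, 12.85 and 12.97 at 3.6 MBq, 12.76, 13.06 and 12.90 at 14 MBq, 12.83, 12.67 and 13.18 at 45 MBq and 13.39, 13.25 and 13.23 at 140 MBq. At 140 MBq the cortex arrays span 13.04 to 13.26 and the medulla arrays 13.23 to 13.39, and both groups overlap their controls. The changes there were 0.33 ± 0.19 in cortex (adjusted p = 0.570) and 0.28 ± 0.18 in medulla (0.541). Over the treated arrays its slope in medulla was 0.07 ± 0.02 per doubling of activity (adjusted p = 0.171). The other 2 Ccnd1 probes changed by -0.38 to 0.31.

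Ccnd3 had 3 probes. ILMN_3131063 read 11.44, 11.37 and 11.33 at 0 MBq, 11.38, 11.27 and 11.36 at 1.3 MBq, 11.31, 11.47 and 11.43 at 3.6 MBq, 11.43, 11.39 and 11.53 at 14 MBq, 11.93, 11.49 and 11.79 at 45 MBq and 11.71, 11.48 and 11.68 at 140 MBq in medulla. All arrays at 45 and 140 MBq lie above all controls, with changes of 0.35 ± 0.13 (adjusted p = 0.143) and 0.24 ± 0.13 (0.448). ILMN_1246473 read 6.99, 7.26 and 7.18 at 0 MBq, 7.37, 7.34 and 7.24 at 1.3 MBq, 8.06, 7.39 and 7.31 at 3.6 MBq, 7.03, 7.07 and 7.02 at 14 MBq, 7.54, 7.60 and 7.66 at 45 MBq and 7.35, 7.58 and 7.52 at 140 MBq there. All arrays at 3.6, 45 and 140 MBq lie above its controls, by 0.44 ± 0.16, 0.45 ± 0.16 and 0.34 ± 0.16 on average (adjusted p = 0.163, 0.145 and 0.406). ILMN_2661849 changed by 0.63 ± 0.25 in medulla at 14 MBq (adjusted p = 0.153), where its arrays at 5.96 to 6.50 overlap controls at 5.30 to 6.03. Ccnd2 changed by -0.05 to 0.48, and its highest arrays, 10.25 in cortex and 9.38 in medulla, are the 14 MBq replicates with the adrenal markers at 11.7 and 11.1, against 4.88 to 5.35 on the other 14 MBq arrays. The part of adrenal tissue in Ccnd2 was not tested. At 140 MBq all 7 G1 probes, of 3 genes, lay above 0 in both tissues, and 0 had an unadjusted p under 0.05. The median change of all probes there was 0.01 in cortex and 0.02 in medulla.

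The members' calls were read against the share of all probes called in the same comparison. In cortex 0 of 37 member probes were called at 1.3 MBq (0.236% of all probes), 0 at 3.6 MBq (0.396%), 0 at 14 MBq (1.27%), 1 at 45 MBq (0.784%) and 0 at 140 MBq (0.847%). In medulla 0 of 39 were called at 1.3 MBq (0.761%), 1 at 3.6 MBq (1.73%), 1 at 14 MBq (4.33%), 2 at 45 MBq (2.34%) and 0 at 140 MBq (1.34%). The test for any difference among the activities called 0 members in cortex (0.569%) and 1 in medulla (5.15%). These counts lie near the background and are no result about the list.

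At an unadjusted limma p under 0.05 the counts were larger, and the direction was counted for the members alone. In cortex they were 3 (11.7% of all probes), 4 (12.9%), 6 (14.6%), 8 (12.2%) and 2 (10.9%) of 37 from 1.3 to 140 MBq, of which 3, 3, 4, 7 and 1 were lower. In medulla they were 5 (13%), 7 (18.9%), 6 (22.5%), 14 (18.4%) and 1 (12.6%) of 39, of which 5, 4, 5, 10 and 1 were lower. Of the 14 in medulla at 45 MBq, 7 S phase and 3 mitosis probes were lower and 2 S phase and 2 G1 probes higher. For any difference among the activities the counts were 6 in cortex (11.2%) and 10 in medulla (25.6%). Without control replicate 1 they were 1, 4, 2, 6 and 2 of 35 in cortex and 2, 2, 3, 8 and 3 of 38 in medulla, with 0 called.

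By role, the median change of the tested mitosis probes in cortex was -0.21, -0.34, -0.36, -0.50 and 0.18 from 1.3 to 140 MBq (7 probes), and in medulla -0.26, -0.16, -0.18, -0.08 and -0.03 (9 probes). For 23 S phase probes it was -0.09, -0.10, -0.15, -0.14 and -0.08 in cortex and -0.02, -0.01, -0.14, -0.21 and -0.14 in medulla. For 7 G1 probes it was -0.07, 0.12, -0.00, 0.17 and 0.27 in cortex and -0.04, 0.02, -0.10, 0.10 and 0.28 in medulla. The median of all probes lay between -0.02 and 0.04 in these comparisons. In cortex Nusap1 and Cdk1, and in medulla Aurka and ILMN_2698767, entered through the control arrays, so the mitosis medians are a description and support no decrease. With 1 probe a gene the medians differed most for mitosis in medulla at 45 MBq (-0.44) and for S phase in cortex at 14 MBq (-0.37) and 45 MBq (-0.40). The mitosis and S phase medians kept their sign on the deposited table and without background correction, at smaller size (mitosis in cortex at 45 MBq, -0.18 on both). Leaving out 1 array turned the sign of several: the S phase median ran from -0.171 to 0.038 in cortex at 1.3 MBq, from -0.192 to 0.046 at 3.6 MBq and from -0.212 to 0.099 in medulla at 3.6 MBq, and the mitosis median at 140 MBq from -0.052 to 0.343 in cortex and from -0.188 to 0.092 in medulla.

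Each role was also averaged over its genes on each array. Relative to the mean of all arrays, the mitosis mean of cortex was 0.441, 0.028 and 0.110 at 140 MBq, against 0.695, 0.280 and -0.062 at 0 MBq. In medulla it was 0.441, -0.029 and 0.046 at 140 MBq, against 0.429, 0.349 and -0.087 at 0 MBq. The groups overlap in both tissues. These means include Top2a, which met the rule only through 0 MBq arrays, so a higher mean at 0 MBq was favoured by the choice. The S phase mean at 45 MBq was 7.01 ± 0.08, against 7.39 ± 0.22 at 0 MBq, in cortex, and 6.88 ± 0.04, against 7.27 ± 0.33, in medulla (SD, n = 3 each).

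**Figure D5:**
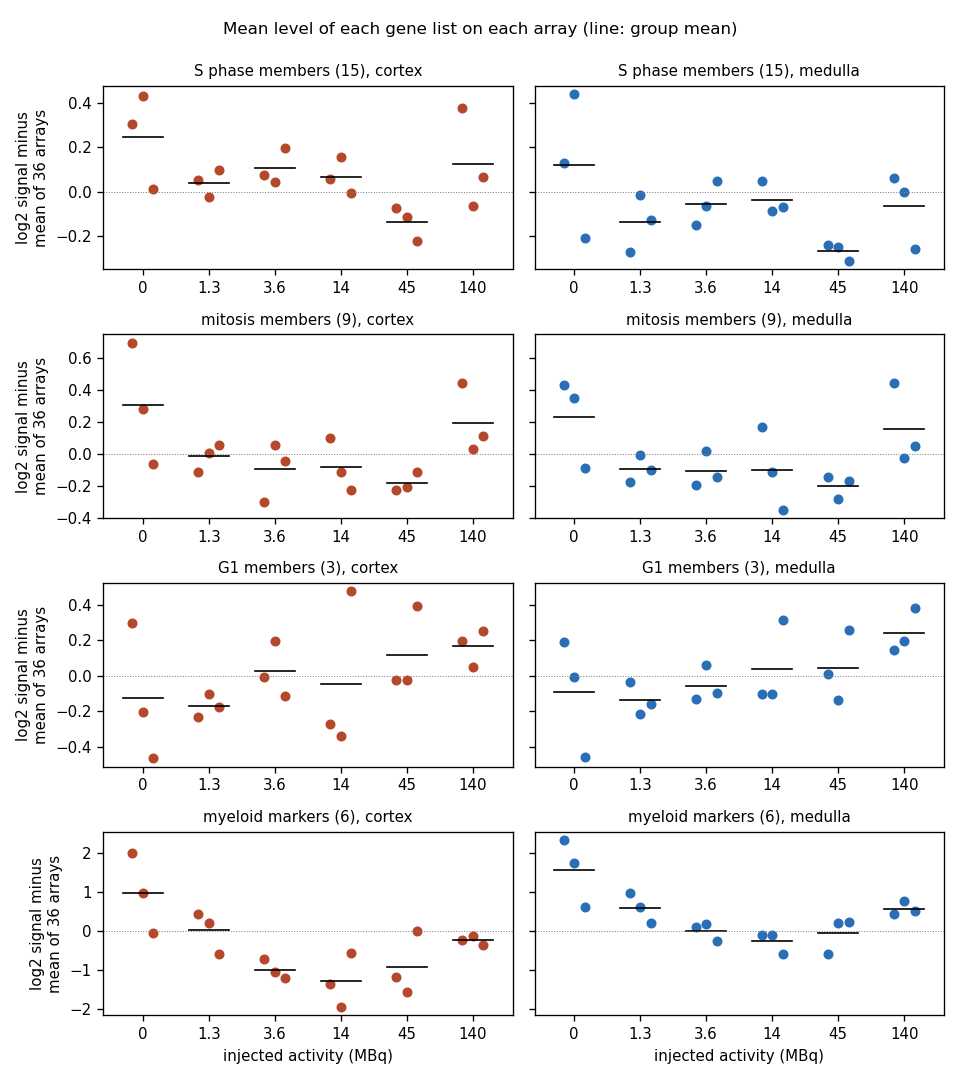
Mean log2 signal of the S phase, mitosis and G1 members and of 6 myeloid markers on each array, less the mean of all 36 arrays (vertical axis), by injected activity in MBq (horizontal axis), in cortex (left) and medulla (right), with group means as lines. The S phase and mitosis means are lowest at 45 MBq in both tissues, the control arrays span much of the range, and the mitosis mean includes Top2a, detected only at 0 MBq.

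The 140 MBq group was set against the 45 MBq group, a comparison that was chosen after the values were seen. Control arrays stay outside the difference, but they entered the filter and the estimate of the spread. On the treated arrays alone 34 of the 37 cortex and 36 of the 39 medulla probes passed the filter. No member was called in cortex (0 of 37, 0.0139% of all probes) or in medulla (0 of 39, 0%). At an unadjusted p under 0.05 there were 5 in cortex (4.28%) and 8 in medulla (9.48%). Of the members Uhrf1 had the largest differences, 1.59 ± 0.36 in cortex (unadjusted p = 0.000468, adjusted p = 0.567) and 1.42 ± 0.46 in medulla (adjusted p = 0.387). Its 3 arrays at 140 MBq lie above all 3 at 45 MBq in both tissues. Cdc20 differed by 0.85 ± 0.25 in cortex, Birc5 by 0.86 ± 0.30 in cortex and 0.76 ± 0.26 in medulla, Mcm6 by 1.03 ± 0.37 in medulla and E2f1 by 0.74 ± 0.32 in cortex. Tyms (ILMN_1247173) and Tk1 differed by -0.69 ± 0.21 and -0.93 ± 0.36 in medulla. Of the mitosis probes 7 of 7 in cortex (median 0.49) and 8 of 9 in medulla (median 0.19) were higher at 140 MBq. The median of all probes was 0.008 in cortex and -0.002 in medulla. Most mitosis probes lie near the detection limit, and the count describes a comparison chosen after the values were seen. Of these mitosis probes 5 in cortex and 7 in medulla passed the filter on the treated arrays alone.

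Over the treated arrays no member had a called slope on log2 activity, 0 of 34 in cortex (0.624% of all probes) and 0 of 36 in medulla (0.69%). At an unadjusted p under 0.05 there were 3 in cortex (9.08%) and 5 in medulla (11.2%). Those in cortex were Uhrf1 (0.15 ± 0.06 per doubling, adjusted p = 0.350), Cdc20 ILMN_2867899 (0.08 ± 0.04) and Tyms ILMN_1247173 (-0.10 ± 0.03, adjusted p = 0.231). Those in medulla were 2 Ccnd1 probes, Ccnd3 (0.05 ± 0.02, adjusted p = 0.219), Bub1b (0.07 ± 0.03) and Cdc20 ILMN_2867901 (0.06 ± 0.03), all above 0.

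Cortex and medulla were compared at 0 MBq in a fit of all arrays. No member was called (0 of 42, 0.435% of all probes), and 2 had an unadjusted p under 0.05 (9.51%). These were Tk1, at 7.72 in cortex and 6.89 in medulla (0.83 ± 0.33, adjusted p = 0.372), and the Cdc20 probe ILMN_2698767 (-0.59 ± 0.23, adjusted p = 0.343). Whether a change differed between the tissues was tested as an interaction, which called 0 of 42 members over all activities (0%) and 0 at 140 MBq (0%). At an unadjusted p under 0.05 there were 2 (1.73%), both of them Tyms probes, and 1 (1.96%), Tyms ILMN_2441899 at -0.71 ± 0.29. With same-numbered cortex and medulla arrays of an activity taken as pairs (consensus correlation 0.172), the tissue and interaction tests called 0 members too. A difference between the tissues in the changes of Nusap1, Mcm6 and Uhrf1 was thus not detected, which does not show that they changed alike.

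Other genes of the same phases were counted from lists that do not overlap the 36. Of 33 further S phase genes 21 were tested in cortex (24 probes) and 22 in medulla (25 probes). In cortex limma called 0 at any activity, with 2, 2, 3, 5 and 3 of 24 at an unadjusted p under 0.05, where all probes gave 11.7%, 12.9%, 14.6%, 12.2% and 10.9%. In medulla Mcm10, a replication initiation factor, rose at 3.6 MBq (0.82 ± 0.16, adjusted p = 0.0216) and 45 MBq (0.76 ± 0.16, 0.0261), while Lig1, which joins Okazaki fragments, fell by 1.19 ± 0.26 at 45 MBq (0.0265). Of 50 further mitosis genes 16 were tested in each tissue (19 probes). In cortex 6, 7, 9, 7 and 5 of 19 had an unadjusted limma p under 0.05, of which 4, 5, 6, 5 and 3 were lower. In medulla there were 6, 6, 8, 7 and 3, of which 4, 4, 5, 5 and 1 were lower. All medulla probes gave 13%, 18.9%, 22.5%, 18.4% and 12.6%. On the treated arrays alone 15 of the cortex and 18 of the medulla probes passed the filter, and low values of the rest were favoured by the choice. A probe of Spc25, a kinetochore protein, rose in cortex at 1.3 MBq (ILMN_2901180, 1.39 ± 0.27, adjusted p = 0.0390). A different Spc25 probe, ILMN_1255960, rose in medulla at 1.3 (1.38 ± 0.28, 0.0304), 14 (1.06 ± 0.28, 0.0419) and 45 MBq (1.43 ± 0.28, 0.0145). No comparison called both probes. Foxm1, a transcription factor of mitotic genes, fell by 0.90 ± 0.19 in cortex at 3.6 MBq (0.0492), and the tubulin gene Tubb5 by 0.83 ± 0.18 in medulla at 45 MBq (0.0235). All 9 of these calls ended without control replicate 1 (adjusted p = 0.0509 to 0.209), where the changes stayed on their side of 0, Mcm10 at 0.862 and 0.805, Lig1 at -1.017 and Spc25 at 1.216 in medulla at 45 MBq, and that of Foxm1 also on the deposited table (-0.34, adjusted p = 0.108). Called genes of these phases lay on both sides of 0. The median change of the further mitosis probes was -0.37, -0.29, -0.42, -0.47 and -0.13 in cortex from 1.3 to 140 MBq. In medulla it was -0.23, -0.15, -0.21, -0.27 and -0.00.

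Of 30 brakes of the cycle and p53 targets 23 were tested (36 probes). In cortex 0, 1, 7, 10 and 10 probes were called higher from 1.3 to 140 MBq and 0 lower. Of all cortex probes 0.236%, 0.396%, 1.27%, 0.784% and 0.847% were called. In medulla 0, 0, 7, 10 and 9 were called higher, and 1 was called lower at 1.3 MBq (Sesn2), at 3.6 MBq (Btg1) and at 45 MBq. Of all medulla probes 0.761%, 1.73%, 4.33%, 2.34% and 1.34% were called. At 140 MBq all tested probes of Cdkn1a, Ccng1 and Gtse1 were called higher in both tissues, so these counts cover fewer genes than probes. Slopes were called above 0 for 9 probes in cortex (0.624% of all probes called) and 10 in medulla (0.69%). Cdkn1a, which encodes p21 (ILMN_2846776), had a slope of 0.65 ± 0.05 per doubling in cortex (adjusted p = 8.56e-07) and 0.58 ± 0.04 in medulla (2.05e-07). In medulla this Cdkn1a probe changed by -0.16 ± 0.29 at 3.6 MBq (limma adjusted p = 0.816) and by 3.21 ± 0.29 at 140 MBq (1.07e-05). Nusap1 changed there by -1.376 at 3.6 MBq, a call that ended when certain single arrays were left out, and by -0.915 at 140 MBq without a call. These Nusap1 changes were not tested against each other. The part of p21 in the changes of the members was not tested.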

How the data were processed

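The deposited, non-normalised table gives for each array a bead signal intensity and a detection p-value per probe, per the file headers. What the submitters did before that, and how their normalised table was made, is not given in the sources used here. Symbols came from the platform annotation, with 1 symbol for 23974 of 25697 probes and none for 1723. Intensities were background-corrected and quantile-normalised with limma 3.58.1 (neqc, offset 16) in R 4.3.3. Each tissue was fitted on its 18 arrays over probes with a detection p under 0.05 on 3 or more of them, with lmFit, eBayes and Benjamini-Hochberg adjustment over all probes tested (12 residual degrees of freedom). The slope used the 15 treated arrays, and the tissue and interaction tests all 36. Every probe was tested, and the brightest stands for its gene where 1 is named. A bound takes the detection limit of the array where a probe was not detected on any array of a group, and it carries no sampling error. Named were the called members, Mki67, Top2a, Mcm2, Mcm5, Ccnd1, Pcna, Nusap1, and up to 3 probes a direction with the smallest p per comparison with 0 MBq. The members and lists were chosen with earlier results of these data known. The fit was tested on simulated data. The labels do not say that arrays with the same number in cortex and medulla share an animal, and their deviations from the group means correlated at over 0.1 in 14 of 18 pairs (0.577 to 0.634 for the controls), so pairing, which was to require all pairs, was used only as an alternative. Alternatives changed the background correction, table, filter, call, fit and block, and left out each array in turn. Contrasting 140 with 45 MBq was added after the values were seen.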

Additional observations from a re-analysis of the deposited data

How the results depend on the processing

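With 3 arrays a group and widely spread controls, a change within that spread could not be called, and for probes near the detection limit, among them most mitosis members, the measured decrease is limited by the background. Of the counts of called members under settings that leave out no array, 127 stayed equal or within 1.5 times and 16 did not. Counts that stayed at 0 are among the 127, and most comparisons had 0 called members to begin with. In the fit of all 36 arrays 1 member was called in cortex at 3.6 MBq, 1 at 14 MBq and 3 at 45 MBq. Without a detection filter 0 were called in cortex at 45 MBq and 1 in medulla at 45 MBq. With a stricter detection filter (p under 0.01) 0 were called in medulla at 3.6, 14 and 45 MBq and 0 for any activity. Requiring a 1.5-fold change and an adjusted p under 0.01, 0 were called in cortex at 45 MBq, in medulla at 3.6 and 14 MBq and for any activity, and 1 in medulla at 45 MBq. On the deposited table, and without background correction, 2 were called in medulla for any activity.

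Leaving out each array in turn gave 0 to 1, 0 to 2, 0 to 3, 0 to 4 and 0 to 0 called members in cortex from 1.3 to 140 MBq and 0 to 2 for any activity. In medulla it gave 0 to 3, 0 to 2, 0 to 5, 0 to 7 and 0 to 1, and 0 to 3 for any activity. For the slopes, the 140 against 45 MBq, the tissue and the interaction tests it gave 0 to 0. The highest counts came without control replicate 3, and without control replicate 1 no member was called in medulla, but calls over all probes moved with them: in medulla at 45 MBq there were 1043 without control replicate 3 and 94 without control replicate 1, against 342 with all arrays. Of the role medians, 36 moved and 144 did not when an array was left out. The change of Uhrf1 at 140 MBq reversed in cortex without 140 MBq replicate 2 (0.003), control replicate 1 (0.066) or 2 (0.232), and in medulla without 140 MBq replicate 2 (0.041) or 3 (0.03) or control replicate 2 (0.435), and was -0.551 in cortex and -0.73 in medulla without control replicate 3. The cause was not tested.

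With the replicate number as a block in the fits of each tissue, the counts of called members did not change. The limma adjusted p was then 0.0445 for Uhrf1 in cortex at 45 MBq and 0.0460 for Mcm6 in medulla at 45 MBq. For Nusap1 in medulla it was 0.0206, 0.0251 and 0.0136 at 3.6, 14 and 45 MBq. The block ended the calls of Spc25 in cortex at 1.3 MBq (0.0727) and in medulla at 14 MBq (0.0542) and of Foxm1 in cortex at 3.6 MBq (0.0979). Same-numbered arrays correlated between -0.323 and 0.634.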
